A study of Mus musculus with 12 samples.

Results

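The genes described here encode the enzymes of glycolysis, of glycogen synthesis and breakdown, and of the creatine kinase and adenylate systems that buffer ATP in muscle. They were taken from a list of 44 gene symbols, and a gene was included where its symbol stood in any of the 3 deposited RNA-seq tables. Of the 44 genes, 37 had a row in at least 1 table, among 10289 gene identifiers in all. The cells were C2C12, mouse myoblasts that divide in growth medium (GM) and fuse into myotubes once serum is lowered. The RNA-seq part held 8 libraries in 4 groups of 2. These were stable lines overexpressing GFP in GM (day 0), GFP after 4 days in differentiation medium (D4), METTL3 in GM and METTL14 in GM. METTL3 and METTL14 are the core subunits of the complex that writes N6-methyladenosine (m6A) on RNA, and GFP was the negative control. Per the paper, only METTL3 is catalytically active, and METTL14 has a structural role in recognising the substrate. According to the methods, stable cells were made by lentiviral infection and puromycin selection, so the controls also carry a vector. For the METTL14 libraries the titles give day 0 and the time point field gives day 4, and the titles were followed.

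The tables compare D4 with GM in GFP cells, METTL3 with GFP cells in GM, and METTL14 with GFP cells in GM, and the GFP libraries in GM enter all 3 comparisons. Each table holds only genes that the authors kept at a false discovery rate of 0.05. The value used below is the authors' mean normalized count, a single mean per gene over a common set of libraries. Which libraries entered it is not stated. Of the 8 RNA-seq libraries 6 were in GM and 2 at D4, and a single mean does not separate the stages. Nor does it separate the GFP cells from those overexpressing METTL3 or METTL14. It carries no replicate spread, so no test was made, and neighbours in an order of levels cannot be told to differ. A row in a table is reported as the authors' selection, without direction or size. A gene without a row has no value, which says nothing of its level. In bulk RNA, fewer cells of a type and less RNA per cell cannot be told apart. Among the markers of the cells, all 8 skeletal muscle genes had a row, from Myf5 (593 mean normalized counts) to Acta1 (53546). No adipocyte marker (0 of 5) and no endothelial marker (0 of 4) had a row. Csf1r was the only leukocyte marker of 4 with a row (27.1 mean normalized counts), and Tubb3 the only neuron marker of 4 (466). Of the overexpressed genes, Mettl3 had a row in the METTL3 table and none in the METTL14 and D4 tables. Mettl14 had a row in the METTL14 and D4 tables and none in the METTL3 table.

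Glycolysis splits glucose into pyruvate and yields ATP without oxygen, and lactate dehydrogenase then regenerates the cofactor that keeps it running. Skeletal muscle stores glucose as glycogen, which phosphorylase releases on demand, and keeps a reserve of phosphocreatine from which creatine kinase restores ATP within moments of contraction. Many of these enzymes exist as muscle isozymes and as isozymes of other tissues, encoded by separate genes. Pfkm, Pgam2, Eno3, Pygm and Ckm are the muscle forms of their enzymes, whereas Pgam1, Eno1, Pygb and Ckb are used more widely.

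The 250 bases before a RefSeq start of 6 of these genes are shown, in pairs of isozymes, because the isozyme balance is the main feature of the levels described below. A single start was used per gene, the first RefSeq start in the direction of transcription. The Ckm and Ldha windows lie inside the spans that GENCODE gives these genes, which begin further upstream. The motif counts below hold for the chosen starts only. The sequences are RefSeq's on GRCm38.p6, given 5′ to 3′ on the strand of the gene, and capitals mark each CANNTG, the E-box that myogenic and many other basic helix-loop-helix factors can bind. The Ckm window lies at chr7:19410844-19411093 (plus strand), the Ckb window at chr12:111672339-111672588 (minus strand), the Pgam2 window at chr11:5803797-5804046 (minus strand), the Pgam1 window at chr19:41911621-41911870 (plus strand), the Ldha window at chr7:46845554-46845803 (plus strand) and the Ldhb window at chr6:142507958-142508207 (minus strand).
Ckm: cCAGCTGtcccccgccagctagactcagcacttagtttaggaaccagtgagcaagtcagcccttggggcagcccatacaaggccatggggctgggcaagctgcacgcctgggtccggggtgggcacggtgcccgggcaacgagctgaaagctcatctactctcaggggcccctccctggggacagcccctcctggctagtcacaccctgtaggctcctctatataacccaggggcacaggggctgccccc
Ckb: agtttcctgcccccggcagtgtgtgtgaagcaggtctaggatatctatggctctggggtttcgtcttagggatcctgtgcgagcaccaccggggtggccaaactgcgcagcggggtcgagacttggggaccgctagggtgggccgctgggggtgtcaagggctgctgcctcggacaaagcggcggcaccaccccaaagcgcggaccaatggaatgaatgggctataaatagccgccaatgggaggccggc
Pgam2: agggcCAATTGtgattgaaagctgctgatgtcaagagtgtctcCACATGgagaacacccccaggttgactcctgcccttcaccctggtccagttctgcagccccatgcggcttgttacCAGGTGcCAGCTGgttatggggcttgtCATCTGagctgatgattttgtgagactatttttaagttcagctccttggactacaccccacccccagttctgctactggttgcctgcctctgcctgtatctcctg
Pgam1: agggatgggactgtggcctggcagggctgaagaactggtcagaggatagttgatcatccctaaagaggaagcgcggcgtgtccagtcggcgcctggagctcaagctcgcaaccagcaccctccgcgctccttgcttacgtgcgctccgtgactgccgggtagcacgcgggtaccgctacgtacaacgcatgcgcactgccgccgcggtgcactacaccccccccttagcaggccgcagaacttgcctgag
Ldha: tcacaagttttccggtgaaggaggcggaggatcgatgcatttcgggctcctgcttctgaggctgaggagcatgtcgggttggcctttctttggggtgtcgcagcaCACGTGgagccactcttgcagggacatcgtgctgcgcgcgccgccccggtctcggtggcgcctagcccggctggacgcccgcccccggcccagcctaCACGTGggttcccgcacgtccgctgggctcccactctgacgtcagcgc
Ldhb: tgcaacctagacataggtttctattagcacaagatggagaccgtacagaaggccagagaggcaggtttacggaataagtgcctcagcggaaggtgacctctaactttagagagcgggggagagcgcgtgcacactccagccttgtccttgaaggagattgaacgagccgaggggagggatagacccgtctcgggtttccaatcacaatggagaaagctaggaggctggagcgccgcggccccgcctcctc

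Of the 37 genes with a row, 35 had an entry in the promoter table, and Ampd1 and Gpd1 had none. At least 1 CANNTG stood in 26 of the 35 windows (74.3%), against 66.1% of 27025 windows of all genes. The windows of Pgam2 and Phkg1 held 5 each, the most among these genes. The isozyme pairs that are not shown did not all differ in the same way. There were 2 for Hk1 and 0 for Hk2, 3 for Pfkm and 0 for Pfkp, and 2 for Pygm and 0 for Pygb. Eno3 had 1 and Eno1 had 2, and Pgm1 had 0 and Pgm2 had 3. Pdk4, Pdk1, Pfkfb3 and Pfkfb1 had 1 each. No CANNTG stood in the windows of Ckb, Gapdh, Hk2, Ldhb, Pfkp, Pgam1, Pgm1, Phkb and Pygb. The sequence ACGTG, the core of the hypoxia response element, stood on either strand in 11 of the 35 windows (31.4%), against 16.5% of all windows. Ldha had the most, with 5 occurrences counted over both strands, of which 4 overlapped its 2 CANNTG matches. TATAAA, also searched on both strands, stood in 4 of the 35 windows (11.4%), against 13.0% of all windows. On the strand of the gene it stood in those of Ckb and Ppp1r3a, and in those of Eno2 and Pgm1 it stood on the other strand only. The median GC content was 58.8% in these windows and 52.0% in all windows. A match is a run of letters and not a shown binding site.

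Most of these genes were among those the authors selected between D4 and GM, and few were among those selected with METTL3 or METTL14. Of the 44 genes, 36 had a row in the D4 table (81.8%), against 40.1% of the 21951 annotated protein-coding genes. For METTL3 there were 4 of the 44 with a row (9.09%), a share near the 7.80% of protein-coding genes. For METTL14 there were 6 of the 44 (13.6%), against 4.91% of protein-coding genes. That base includes genes without a row in any table. Counted only over the 37 genes with a value, the shares were 97.3%, 10.8% and 16.2%, against 95.2%, 18.5% and 11.6% of the 9260 protein-coding genes with a row in any table. On this base the D4 share was near the background, the METTL3 share was below it and the METTL14 share above it, by a few genes each and without a test. The genes without a row were Gpi1 (glucose phosphate isomerase), Pfkl (the liver phosphofructokinase), Aldoc (a brain aldolase), Pygl (the liver glycogen phosphorylase), Ppp1r3c (a glycogen-targeting phosphatase subunit), Ckmt2 (the sarcomeric mitochondrial creatine kinase) and Fbp2 (the muscle fructose bisphosphatase).

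**Figure D1:**
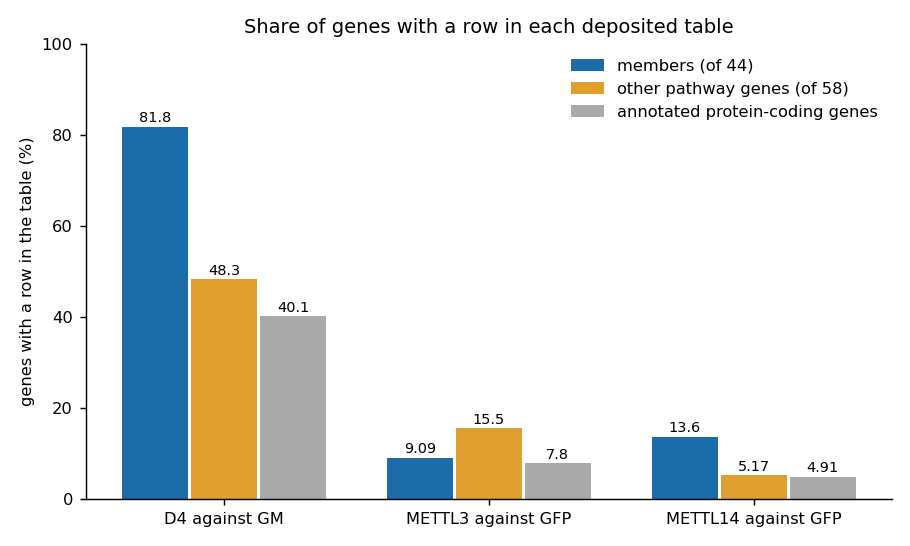
Percentage of genes with a row in each deposited table (bars, vertical axis in percent) for the 44 genes described here, 58 other pathway genes and the annotated protein-coding genes. The bar of the 44 genes stands at 81.8% for D4 against GM, and at 9.09% and 13.6% for METTL3 and METTL14 against GFP.

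Levels of different genes were compared as mean normalized counts per kb of merged exon length, called the level here. The median level over the 37 genes was 310, against 115 over the 9260 protein-coding genes with a row. Levels ran from 1.34 for Phkg1 to 6845 for Aldoa. Of the 37, 11 were in the highest 10% of protein-coding genes, 26 were above the median gene, and 7 were in the lowest 25%. The median position was at the percentile 77.8. The 7 lowest were Ldhb, Pfkfb3, Pfkfb1, Ampd1, Gpd1, Ppp1r3a and Phkg1. Together the 37 genes held 0.866% of the summed mean normalized counts of all genes with a row. Of their own summed level, the glycolytic genes held 74.9%, the genes of pyruvate fate 10.3%, the glycogen genes 8.96% and the creatine kinase and adenylate genes 5.79%.

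**Figure D2:**
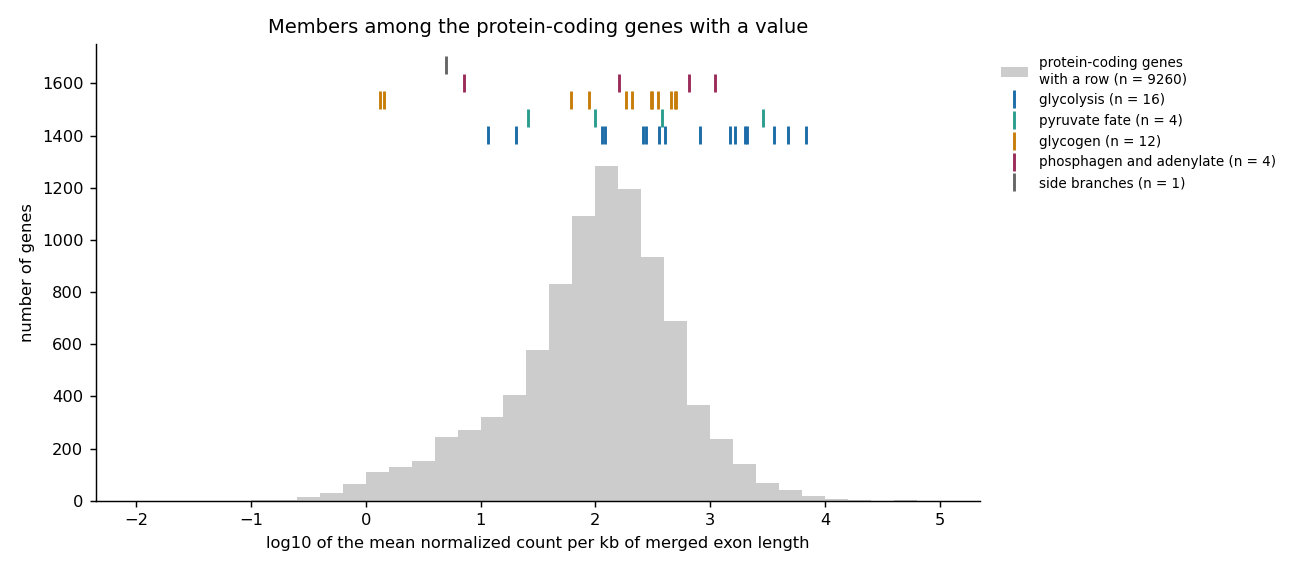
Number of protein-coding genes (grey bars, n = 9260) by the log10 of the mean normalized count per kb of merged exon length, with a vertical mark for each of the 37 genes described here, in rows by group. Most marks of the glycolytic group lie to the right of the peak of the grey bars, whose median is a level of 115.

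In glycolysis, the highest levels were those of Aldoa, Pkm, Eno3, Gapdh, Tpi1, Pgk1 and Eno1, all of which act between aldolase and pyruvate kinase, while Pgam1, Pgam2 and Eno2 of the same stretch were lower. Aldoa, the aldolase of muscle and many other tissues (ENSMUSG00000030695, chromosome 7 of GRCm38, 126795234 to 126800751), had 19925 mean normalized counts and a level of 6845, number 36 of the 9260 genes. Pkm, the pyruvate kinase of muscle and proliferating cells (ENSMUSG00000032294, chromosome 9, 59656368 to 59679375), had the most mean normalized counts of these genes, 23843, and a level of 4768. Pkm gives rise to alternative isoforms by splicing, which a count per gene does not separate. Gapdh, which encodes glyceraldehyde phosphate dehydrogenase, had a level of 2085, Tpi1 (triose phosphate isomerase) of 1997 and Pgk1 (phosphoglycerate kinase) of 1646. Each of Aldoa, Pkm, Gapdh, Tpi1 and Pgk1 had a row in the D4 table and in neither of the others. A second identifier with the symbol Aldoa (ENSMUSG00000114515, chromosome 7, 126800790 to 126809108, directly upstream of the first on the same strand) had 17.1 mean normalized counts and was kept apart.

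The phosphoglycerate mutase genes stood below Pgk1, which acts just before them, and below Eno1 and Eno3, which act just after. Pgam1, the widely used form, had 714 mean normalized counts and a level of 360, and Pgam2, the muscle form, had 218 mean normalized counts and a level of 259. The level of Aldoa was 19.0 times that of Pgam1, and 31.97 times with the longest transcript. GENCODE names further copies of both genes, and whether reads were shared with them was not tested. Pgam1 made up 58.1% of the summed level of the pair and 76.6% without division by length, because Pgam2 has a merged exon length of only 840 bases against 1982. The Pgam2 window shown above has 5 CANNTG matches and that of Pgam1 has none, a contrast that other isozyme pairs do not all share. Both genes had a row in the D4 table alone.

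The enolase genes gave the balance that depended most on the length used. Eno3, the muscle enolase (chromosome 11, 70657202 to 70662513), had 6266 mean normalized counts and a level of 3603. Eno1, the widely used enolase (chromosome 4, 150236721 to 150248879), had more counts, 8025, and a lower level, 1492. Eno2, the enolase of neurons, had 537 mean normalized counts and a level of 114. Eno3 thus made up 69.2% of the summed level, and 49.1% with the longest transcript against 48.5% for Eno1, but with the coding length, which is 1302 bases in all 3 genes, Eno1 led with 54.1% and Eno3 had 42.3%. The merged exons of Eno1 cover 5379 bases and those of Eno3 1739. Eno1b, a near copy of Eno1, had a row of its own with 350 mean normalized counts, so reads could be split between the copies. The 3 enolase genes had a row in the D4 table alone.

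The genes of the first, committing steps were all below the level of Eno1. Of the hexokinase genes, Hk1 (chromosome 10, 62268855 to 62379908) had 3456 mean normalized counts and a level of 405, and Hk2, the insulin-responsive form of muscle, had 1655 mean normalized counts and a level of 277. Hk1 made up 59.4% of the pair. Hk1 was the only gene of the list with a row in the METTL3 and METTL14 tables and none in the D4 table, while Hk2 had a row in the D4 table alone. Of the phosphofructokinase genes, which catalyse the committed step, Pfkm had 2729 mean normalized counts and a level of 817. Pfkp, the platelet form, had 1637 mean normalized counts and a level of 122. Pfkm was 87.0% of the pair, and 62.6% with the coding length, with Pfkl left out because it has no value. Pfkm had a row in the D4 table alone and Pfkp in the D4 and METTL14 tables. Pfkfb3 and Pfkfb1, bifunctional enzymes that set the concentration of the main activator of phosphofructokinase, were low, with levels of 20.4 and 11.7, and had rows in the D4 table alone. Pfkfb4 (38.6) and Pfkfb2 (24.7), which are outside the list, had higher levels.

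**Figure D3:**
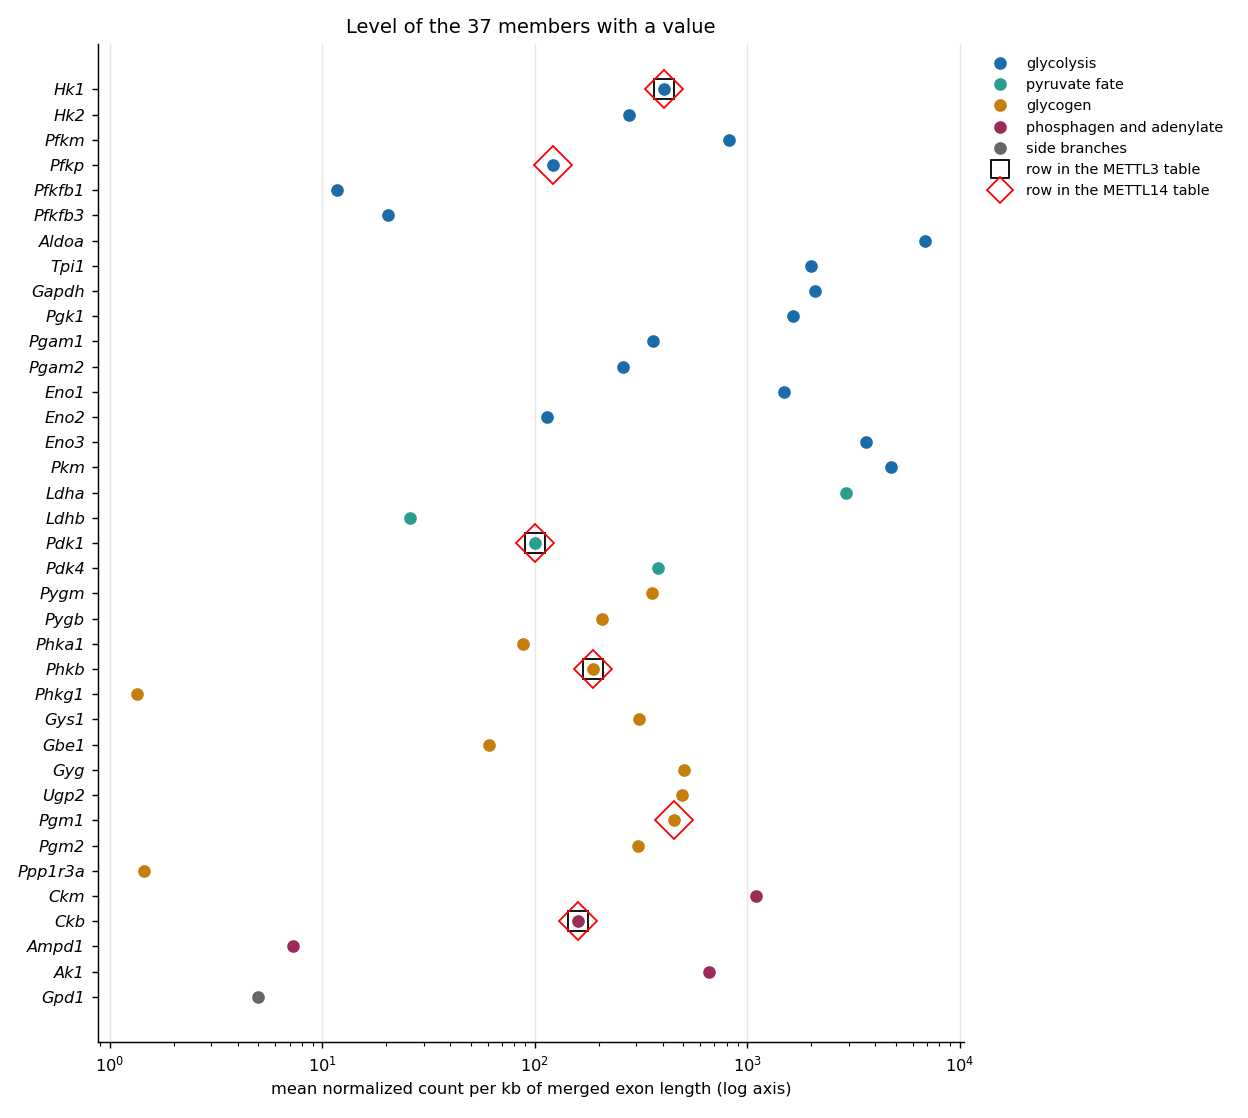
Level of each of the 37 genes with a value (points, horizontal log axis, mean normalized counts per kb of merged exon length), ordered by role and coloured by group, with squares and diamonds around genes with a row in the METTL3 and METTL14 tables. Points run from 1.34 (Phkg1) to 6845 (Aldoa), and the 6 marked genes lie between 100 and 452.

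At the fate of pyruvate, a single lactate dehydrogenase gene supplied nearly all of the RNA. Ldha, whose product favours the making of lactate, had 9629 mean normalized counts and a level of 2909. Ldhb, the form of the heart, had 40.8 mean normalized counts and a level of 25.96. The level of Ldha was 112 times that of Ldhb, and 219 times with the coding length. Ldha made up 99.1% of the pair, with 99.6% without division by length. In the windows shown above, that of Ldha holds 5 ACGTG matches counted over both strands, and that of Ldhb none. Of the 5 in Ldha, 4 overlap its 2 CANNTG matches, both CACGTG, which reads the same on both strands. Pdk4 and Pdk1 encode kinases that switch off the pyruvate dehydrogenase complex and so keep pyruvate from the mitochondrial pathway. Pdk4 had 1334 mean normalized counts and a level of 380, and Pdk1 had 779 and a level of 100. Pdk4 made up 79.1% of the summed level of the pair, and 64.3% with the coding length. Pdk3 (143) and Pdk2 (96.4), which are outside the list, also had a value and are not in this sum. Ldha, Ldhb and Pdk4 had a row in the D4 table alone, whereas Pdk1 (chromosome 2, 71873224 to 71903858) had a row in each table.

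The 12 glycogen genes with a value had a median level of 257, and none was in the highest 10% of protein-coding genes. Gyg, the glycogenin that primes a new particle, had the highest level of the group, 505, followed by Ugp2, which makes UDP-glucose, with 494. Pgm1 and Pgm2, the phosphoglucomutases, had levels of 452 and 306, and Pgm1 made up 59.6% of the pair. Gys1, the glycogen synthase of muscle, had 1486 mean normalized counts and a level of 310, 5.10 times that of Gbe1, the branching enzyme, at 60.9. Pygm, the muscle phosphorylase whose loss causes McArdle disease, had 1142 mean normalized counts and a level of 355. Pygb, the brain form, had 997 mean normalized counts and a level of 207. Pygm made up 63.1% of the pair, and 53.4% with the coding length, with Pygl left out because it has no value. The level of Pygm was 1.14 times that of Gys1, and 0.674 times with the coding length, so the order of this pair turned with the length. All 12 glycogen genes with a value had a row in the D4 table, near the 95.2% of protein-coding genes with a value, and Pgm1 (chromosome 4, 99929414 to 99987294) also had a row in the METTL14 table.

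Phosphorylase kinase, the enzyme that activates phosphorylase in response to calcium, is a complex of alpha, beta and gamma subunits with calmodulin, its calcium sensor. Its 3 genes on the list had very different levels. Phkb, the beta subunit (chromosome 8, 85840959 to 86061376), had 1386 mean normalized counts and a level of 187. Phka1, the muscle alpha subunit, had 548 mean normalized counts and a level of 87.5. Phkg1, the muscle catalytic subunit, had 8.74 mean normalized counts and a level of 1.34, and the level of Phkb was 139 times higher. The ratio was 56.7 with the coding length. Of the subunit genes outside the list, Phka2 had a level of 124, above that of Phka1. Phkg2 had no row, so its level is unknown and the subunits as a whole cannot be compared. Ppp1r3a, the muscle subunit that targets a phosphatase to glycogen, had 10.0 mean normalized counts and a level of 1.44. Phka1, Phkg1 and Ppp1r3a had a row in the D4 table alone, and Phkb had a row in each table.

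**Figure D4:**
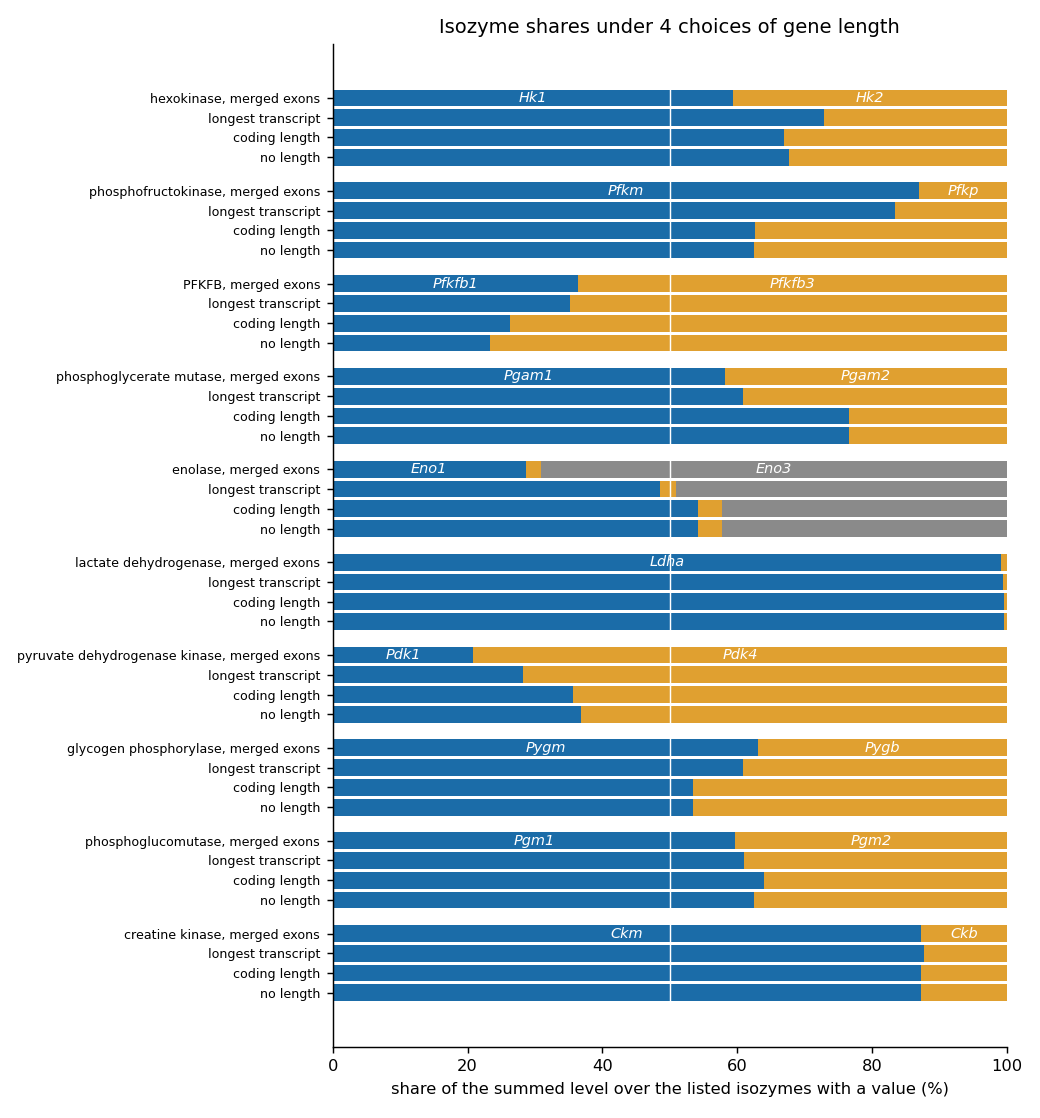
Share of each isozyme in the summed level of the isozymes on the list of 44 genes (stacked bars, percent), for 10 enzymes with at least 2 listed genes that have a value, each drawn with 4 choices of length; isozymes outside the list are left out. Ldha fills 99.1% or more of its bars and Ckm 87.2% or more, while for enolase Eno3 (grey) leads with merged exons (69.2%) and Eno1 (blue) with the coding length (54.1%); the narrow unlabelled segments are Eno2 and Ldhb.

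Of the creatine kinase genes, the muscle form had the higher mean over the libraries under every length used. That mean does not separate GM from D4, so the balance at each stage is not known here. Ckm (ENSMUSG00000030399, chromosome 7, 19404776 to 19422841) had 3187 mean normalized counts and a level of 1094. Ckb, the form of brain and many other tissues (ENSMUSG00000001270, chromosome 12, 111669361 to 111672338), had 463 mean normalized counts and a level of 160. The level of Ckm was 6.84 times that of Ckb, and its share of the pair ran from 87.2% to 87.7% over the lengths tried, with Ckmt2 left out because it has no value. Ckm had a row in the D4 table alone, and Ckb had a row in each table. In the windows shown above, the Ckm window holds 1 CANNTG and no TATAAA, and the Ckb window holds no CANNTG and 1 TATAAA. Only the exact TATAAA was searched, and the Ckm window holds the similar run TATATAA near its end. Ak1, the cytosolic adenylate kinase that recovers ATP from ADP, had 1704 mean normalized counts and a level of 657. Ampd1, the muscle AMP deaminase, had 25.7 mean normalized counts and a level of 7.23. Gpd1, the cytosolic glycerol phosphate dehydrogenase, had 14.7 mean normalized counts and a level of 4.98. Ak1, Ampd1 and Gpd1 had a row in the D4 table alone.

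The genes with a row in a METTL3 or METTL14 table were thus Hk1, Pdk1, Phkb and Ckb for METTL3, and these with Pfkp and Pgm1 for METTL14. They came from different steps, with levels between 100 for Pdk1 and 452 for Pgm1. Among protein-coding genes with a row, these were the percentiles 46.1 and 85.5. Neither table had a row for the abundant genes of the lower part of glycolysis, for Ldha or for Ckm. Among protein-coding genes with a value of at least 1000 mean normalized counts, 21.3% had a row for METTL3 and 12.6% for METTL14. Lacking such a row is thus common among abundant genes. Both comparisons use the same GFP libraries in GM, so rows that occur in both tables are not separate observations.

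Among 58 further genes of the same pathways, fixed as a list of other isozymes, transporters, pyruvate dehydrogenase genes, glycogen genes and creatine and adenylate genes, 31 had a row in some table. Of the 58, 28 had a row for D4 (48.3%), 9 for METTL3 (15.5%) and 3 for METTL14 (5.17%). Pklr, the pyruvate kinase of liver and red cells, and Ldhc, the lactate dehydrogenase of testis, had no row. All 5 transporter genes had a row. The highest levels among them were those of the glucose transporter Slc2a1 (678), which had a row in each table, the lactate transporter Slc16a1 (676) and the lactate exporter Slc16a3 (67.8), while the insulin-responsive transporter Slc2a4 was at 7.67. Of the pyruvate dehydrogenase genes 6 of 9 had a row, led by Pdha1 (882), Pdhx (151) and Pdk3 (143). Of the further glycogen genes 8 of 15 had a row, led by the lysosomal glucosidase Gaa (616), Stbd1 (440) and Gsk3a (312). Of the creatine and adenylate genes 8 of 11 had a row, among them the creatine synthesis genes Gatm (539) and Gamt (387). Of the other glycolytic isozymes and enzymes 4 of 18 had a row, led by Adpgk (99.7), Tigar (46.9) and Pfkfb4 (38.6).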

How the data were processed

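RNA-seq was measured in 8 C2C12 libraries in 4 groups of 2, assigned by their titles. The 4 MeRIP-seq libraries were not analysed here. Per the paper's methods, the authors aligned reads to GRCm38 with hisat2, counted them with featureCounts on the Ensembl annotation (version 102) and compared groups with DESeq2. Program versions are not given in the sources used here. The value used is a signal that the authors deposited for each gene, their mean of read counts divided by size factors. Where a gene had rows in several tables, the values differed by a relative 4.77e-10 at most. The authors' own log2 fold changes, standard errors, Wald statistics and p-values, also in the deposited tables, were not used. With no value per library, the depth is unknown here and no test was made. No column of per-library values was found.

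Levels were the mean divided by the merged exon length in GENCODE M21 (GRCm38), which held 10282 of the 10289 identifiers. It is an earlier annotation release than the authors'. Calculations used Python 3.11.15 with pandas 2.3.3 and NumPy 2.4.6, and plots matplotlib 3.10.9. The functions for shares, percentiles and merged lengths were tested on simulated data. The shares of listed genes used all annotated protein-coding genes as the base. The genes and lists were chosen with earlier results of these data known. Every gene of the list was named, and of other genes the targeted genes, the markers and the 3 highest levels in each group of the pathway, with a few named after their values were seen and some not reported here. Coding lengths came from GENCODE, and protein sequences were not used here. The motifs and the promoters shown were chosen after the levels were seen. The alternatives were other lengths, other sets of background genes and minimum mean counts of 100 and 1000.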

Additional observations from a re-analysis of the deposited data

How the results depend on the processing

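The alternatives tried concerned the length, the background genes and a minimum mean count. Among the isozymes on the list, the gene with the highest share was the same under each length tried in 9 of 10 enzymes. The ratio of Ldha to Ldhb ranged from 112 to 236, and that of Aldoa to Pgam1 from 17.0 to 31.97. The exception was enolase, where the share of Eno3 fell from 69.2% to 42.3% with the coding length and to 42.3% without division by length, behind Eno1. With the longest annotated transcript Eno3 led by little, at 49.1%. The median level over the genes moved from 310 to 671 per kb with the coding length, which is shorter than the merged exons by construction, and was 383 with the longest transcript. The median percentile ranged from 76.2 to 79.5 over the backgrounds and scalings. With a minimum mean normalized count of 1000, the number of genes with a row was 20 for D4 and 2 for METTL3, because fewer genes remain by construction, and 4 for METTL14. With a minimum of 100 it was 30, 4 and 6. No paired analysis was possible because the tables hold no value per library and no result comes from a test, and for the same reason no replicate could be left out. Without counts per library, depth sets an unknown limit on the values of low genes such as Phkg1, Ppp1r3a and Gpd1.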

Other observations

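Gapdh, 1 of the glycolytic genes with a row in the D4 table, was the endogenous control of the quantitative PCR in the study's methods. The primers were placed in the annotated transcripts, with the forward primer CGTCCCGTAGACAAAATGGT and the reverse primer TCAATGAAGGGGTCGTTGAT, both 20 bases. Both matched exactly, in the right order, in 7 transcripts of Gapdh, and 5 of these gave a product of 125 bases. Both also matched exactly in transcripts of 5 other annotated genes, Gm10358, Gm3272, Gm3839, Gm5069 and Gm7336, and 4 of these gave a product of the same 125 bases. Of these genes, Gm3839 had rows of its own in the D4 and METTL3 tables, with 192 mean normalized counts against 8617 for Gapdh, and the others had none. Whether these copies contributed to any PCR signal was not tested.

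GENCODE names further copies or related genes of the glycolytic genes, with 6 for Tpi1, 4 for Aldoa, 3 for Pgk1, 3 for Ldha and 2 for Pgam1 found by symbol. Those of Ldha include Ldhal6b. Of these none had a row in any table, and of all those searched by symbol only Eno1b did. A missing row does not show that a copy took no reads. Copies with unrelated symbols, such as Gm3839 above, were not searched for.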
